A study of Drosophila melanogaster with 6 samples.

Results

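Single brain cells of Drosophila were assigned to males or females by 2 RNAs of the X chromosome, lncRNA:roX1 and lncRNA:roX2, and the male and female cells of each library were then compared with each other. Barcodes were used that had at least 200 genes, at most 10% mitochondrial UMIs (unique molecular identifiers, which count transcripts) and at least 5000 UMIs. A cell with at least 20 roX1 plus roX2 UMIs was taken as male, and a cell with fewer than 5 as female. Of 67362 barcodes in all, 25189 passed the gene and mitochondrial limits, and 4197 of these also had 5000 UMIs. Of those, 2255 cells were male, 1736 were female, and 206 (4.91%) fell between the roX limits and were left out of the comparisons. The brains came from flies aged 10 days. There were 3 control libraries from w1118 flies and 3 Appl- libraries from Appl[d] w[*] flies, in which a deletion takes out the middle of Appl, the fly gene for the amyloid precursor protein, and leaves its first and last exons. Each library was a single suspension dissociated from 20 male and 20 female brains and made with the 10x Chromium 3' kit, so the male and female cells of a library shared every later step. The allele and its genetic background cannot be told apart, since nothing says that the strains share one. Nothing says either that the replicates came from separate cultures, so the p-values measure the spread between these libraries, which may be technical.

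In flies, males have a single X chromosome and females have a pair. The male-specific lethal (MSL) complex, built of the proteins msl-1, msl-2, msl-3, mle and mof with the roX RNAs, binds along the male X and raises its transcription. The RNA-binding protein Sxl is made in females, where it blocks msl-2 and so keeps the complex from forming, and it also directs the splicing of tra and of its own transcript. The transcription factor genes dsx and fru lie downstream of tra and are spliced differently in the sexes. The counts used here are per gene and do not separate these splice forms.

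roX UMIs per cell fell into a low and a high group in each library. Because they chose the cells, they are described here without a test. The median male cell had 40, 59 and 59 roX UMIs in control replicates 1, 2 and 3 and 45, 49 and 52 in Appl- replicates 1, 2 and 3, while the female median was 0 or 1 and no female cell had more than 4. Over all libraries, 1006 cells had no roX UMI. Just inside the female limit there were 102 cells with 3 or 4 roX UMIs, and just outside it 34 cells with 5 or 6. Just inside the male limit there were 107 cells with 20 to 24, and just outside it 76 with 15 to 19. Most roX UMIs of male cells were of roX1, from 84.8% to 90.2% by library. roX1 was at 4821 to 7345 UMIs per 1000000 UMIs (CPM) in the male sums and at 28.2 to 119 in the female sums. roX2 was at 643 to 1246 CPM in male and at 6.27 to 25.3 in female cells. Control replicate 1 stood apart with 10.4% of its cells between the limits, against 1.95% to 5.12% in the other 5 libraries.

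**Figure D1:**
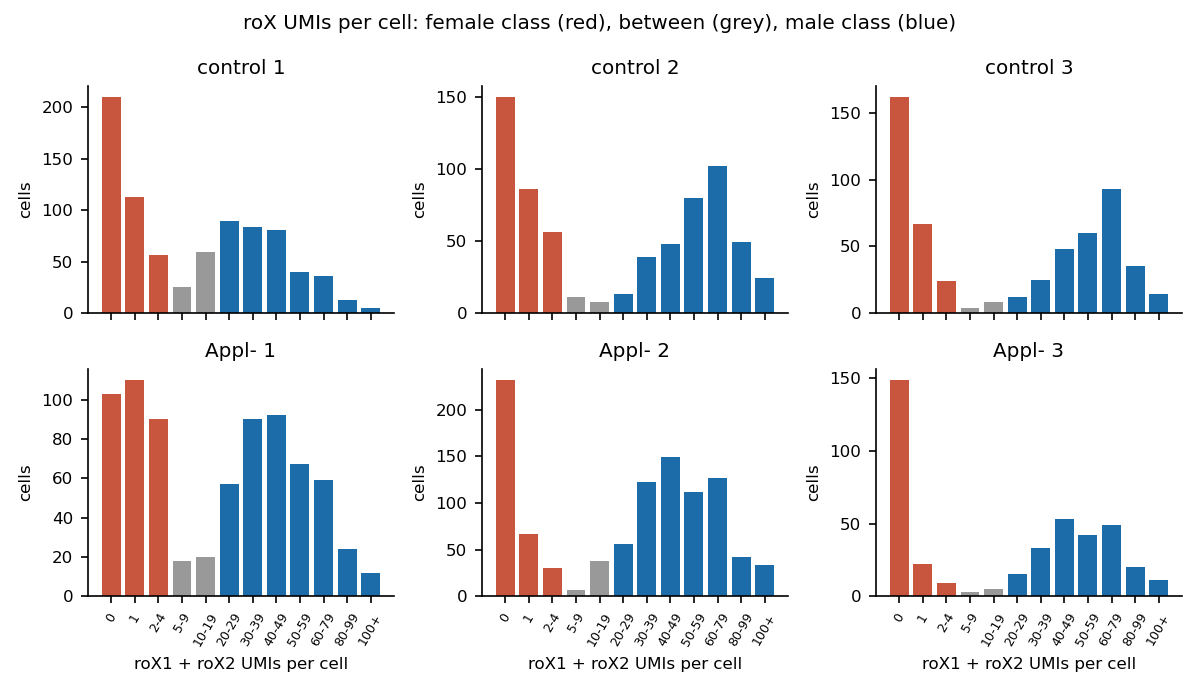
Number of cells (y axis) by roX1 plus roX2 UMIs per cell (x axis, in unequal bins) in each library, with the female class in red, the male class in blue and cells between the limits in grey. Each library has a group at 0 to 4 UMIs and a broad group above 20, and control replicate 1 has the largest number of cells between them, 84.

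The male share of the male and female cells was 47.9% (95% exact binomial interval 44.2% to 51.6%, counting error only), 54.9% (50.9% to 58.8%) and 53.1% (48.8% to 57.4%) in control replicates 1, 2 and 3. In Appl- replicates 1, 2 and 3 it was 57.0% (53.2% to 60.7%), 66.1% (63.0% to 69.1%) and 55.3% (50.3% to 60.3%). The genotypes did not overlap, at 52.0% ± 3.65 for the controls and 59.5% ± 5.79 for Appl- (SD over 3 libraries), and the two-sided exact permutation test gave p = 0.1, the smallest that 3 against 3 libraries can give. Male and female cells were close in depth, although median UMIs and median genes were each higher in male cells of 5 of 6 libraries. The mean over libraries of the median UMIs per cell was 6653 in male and 6520 in female cells (two-sided exact sign-flip test over 6 libraries, p = 0.25), that of genes per cell was 1973 and 1944 (p = 0.0625), and that of the mitochondrial percentage was 3.78 in both (p = 1). Libraries held 11282730 to 56384733 UMIs over all barcodes, and the libraries shared at most 1 barcode among male and female cells in any pair. The 5 neuron markers elav, nSyb, brp, Syt1 and Syn summed to 5879 to 7419 CPM in all 12 sums of a sex and a library. Glia markers summed to 101 to 794 CPM, and only 6 male and 6 female cells were glia-like, so the cells compared were mainly neurons. No doublets were removed, and a droplet holding a male and a female cell would count as male.

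Of 7306 genes tested between male and female cells within libraries, 31 were called (0.424%), 14 higher in male (0.192%) and 17 higher in female cells (0.233%). A gene was called at an adjusted p below 0.05 where the higher sex was at least 25% above the lower, in edgeR's quasi-likelihood test with a term for each library and Benjamini-Hochberg adjustment over all genes tested, and every adjusted p here is from that test unless another tool is named. The 2 roX genes were not tested. Of the 31 calls, 23 were on the X chromosome, 10 higher in male and 13 higher in female cells. These were 0.787% and 1.02% of the 1270 X genes tested. On the large autosome arms, 0.0677% of 5905 genes were called in each direction. Without Appl- replicate 2 the count was 20, and 14 of the 31 genes were called without each library in turn. DESeq2 called 21 of them and missed 10, which were Obp19d, Hml, Ppn, Tmtc3, CG18508, CG9123, RhoGAP1A, lncRNA:CR45668, lncRNA:CR45527 and lncRNA:cherub. With at least 10000 UMIs per cell only 6 genes were called. In these sums, fewer cells of a type and less RNA per cell cannot be told apart.

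Sxl (FBgn0264270, X:7074550-7098053 in build BDGP6.54, minus strand) had the lowest p of all genes tested. It was at 717, 767 and 716 CPM in the male and 1052, 1447 and 1373 CPM in the female cells of control replicates 1, 2 and 3. In Appl- replicates 1, 2 and 3 it was at 578, 621 and 584 CPM in male and 1122, 1169 and 1127 CPM in female cells. Every female sum was above every male sum. The means were 664 ± 79.9 and 1215 ± 157 CPM (SD, n = 6), and the log2 difference of male from female was -0.87 (SE 0.05, adjusted p = 1.75e-04). The gap was smallest in control replicate 1, at -0.55 on the log2 scale, against -0.96 to -0.91 in the other 5 libraries. Sxl UMIs were found in 95.1% of male and 98.7% of female cells. In the 206 cells between the roX limits, Sxl was at 981 CPM, between the pooled male (663 CPM) and female (1212 CPM) levels, although in control replicate 2 it was above the female level (1584 and 1446 CPM). There ssx, at 145 CPM (male 244, female 176), and CG18467, at 81.4 CPM (male 167, female 94.6), were below the pooled levels of both sexes.

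ssx (sister of Sex-lethal, FBgn0024987, X:1370580-1375257, plus strand) encodes an RNA-binding paralogue of Sxl, and it differed in the opposite direction. In control replicates 1, 2 and 3 it was at 214, 264 and 230 CPM in male and 149, 178 and 173 CPM in female cells. In Appl- replicates 1, 2 and 3 it was at 217, 259 and 264 CPM in male and 185, 193 and 192 CPM in female cells. No male sum was as low as the highest female sum. ssx was higher in male cells by 0.44 on the log2 scale (SE 0.05, adjusted p = 0.00537). Whether reads of the paralogues could be assigned to each other was not tested.

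CG18467 (FBgn0034218, 2R:17440297-17442483, plus strand) was the autosomal gene with the lowest p. Its male and female levels were 133 and 81.9 CPM in control replicate 1, 160 and 80.9 CPM in control replicate 2, and 218 and 114 CPM in control replicate 3. In Appl- cells they were 159 and 97.3 CPM in replicate 1, 160 and 97.5 CPM in replicate 2, and 193 and 111 CPM in replicate 3. No female sum reached the lowest male sum. CG18467 was higher in male cells by 0.81 on the log2 scale (SE 0.06, adjusted p = 2.2e-04). It overlaps EDTP on the opposite strand. The sources used here do not say whether strand was used in counting, so it is not known whether reads of these genes were kept apart. Sxl, CG18467 and asRNA:CR44961 were called in every alternative that could be fitted to them. ssx and CG17778 were called in all but one, the limit of 10000 UMIs, which kept 562 cells.

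**Figure D2:**
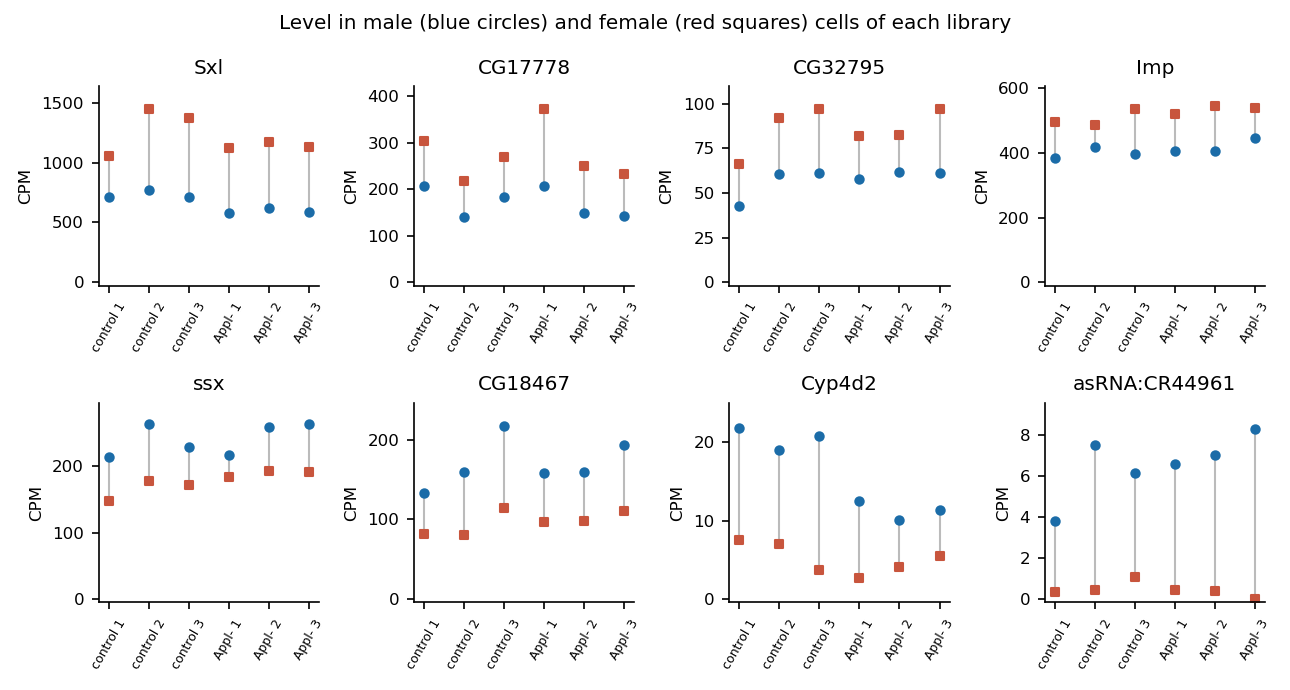
Level in CPM (y axis) of 8 called genes in the male (blue circles) and female (red squares) cells of each library (x axis), joined by a grey line. Sxl, CG17778, CG32795 and Imp are higher in female cells of all 6 libraries, and ssx, CG18467, Cyp4d2 and asRNA:CR44961 are higher in male cells of all 6.

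The other genes of the sex determination list were not called by edgeR, and DESeq2 called fru besides Sxl and ssx. Of 15 listed, 14 could be tested, Sxl and ssx were called in opposite directions and 12 were not called, and the median log2 difference of the list was -0.04, against -0.003 over all genes tested. fru, the regulator of male courtship, was at 315 to 518 CPM in male and 444 to 624 CPM in female cells, and lower in male cells of 5 of 6 libraries (log2 -0.36, adjusted p = 0.0581). The fru difference passed the threshold under 7 of 19 alternatives. These were DESeq2 (adjusted p = 0.00289), no filter on low counts, roX limits of 40 and 2, at least 3000 UMIs, thinning to 5000 UMIs, neuron-like cells only, and leaving out control replicate 3 (adjusted p = 0.0199). dsx, which directs sexual differentiation of the body, was at 2.87 to 7.46 CPM in male and 0 to 8.06 CPM in female cells (log2 0.75, adjusted p = 0.58). The splicing targets and partners tra (log2 -0.19) and tra2 (0.18) also missed the threshold, with adjusted p of 0.550 and 0.536. Ythdc1, the reader of RNA methylation that takes part in Sxl splicing, was higher in male cells of 6 of 6 libraries by only 0.12 on the log2 scale (adjusted p = 0.515).

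None of the protein members of the dosage compensation list was called: 6 of 8 listed were tested, the other 2 being the roX genes, and their median was 0.05. At an unadjusted p below 0.05 in edgeR there was 1, msl-2, against 765 of all 7306 genes, and DESeq2 called 0 of the list. msl-2, the member that Sxl blocks, was at 18.4 to 27.0 CPM in male and 14.4 to 24.8 CPM in female cells, and higher in male cells of 5 of 6 libraries (log2 0.30, SE 0.10, unadjusted p = 0.0165 and adjusted p = 0.327 in edgeR). The helicase mle gave -0.10, the scaffold msl-1 0.07, msl-3 0.01, the acetyltransferase mof 0.19 and the DNA-binding adaptor Clamp 0.03 on the log2 scale. Their adjusted p-values were between 0.664 and 1.00.

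Among the genes higher in female cells, CG17778, CG32795 and CAH2 were called without each library in turn. CG17778 (X:494614-496369) was at 141 to 207 CPM in male and 217 to 372 CPM in female cells and lower in male cells of 6 of 6 libraries (log2 -0.67, adjusted p = 3.69e-04). CG32795 (X:2782906-2790567) was at 42.9 to 61.7 CPM in male and 66.4 to 97.1 CPM in female cells, without overlap (log2 -0.57). It overlaps kirre on the opposite strand, and it is not known whether its reads were kept apart from those of kirre. CAH2, a carbonic anhydrase of chromosome arm 3L, was at 4.16 to 18.01 CPM in male and 15.9 to 40.2 CPM in female cells (log2 -1.60). It had UMIs in 94 male and 144 female cells.

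The other genes higher in female cells that the naming rule chose each lost the call without some library. Tmtc3, which encodes a protein of O-mannosylation, was at 12.5 to 19.4 CPM in male and 19.1 to 36.0 CPM in female cells (log2 -0.82). Its adjusted p was 0.0661, 0.0583 and 0.0536 without Appl- replicate 1, 2 or 3. hoe1, a fly relative of the human OCA2 transporter, was at 9.51 to 61.3 CPM in male and 18.2 to 73.8 CPM in female cells (log2 -1.10). It lost the call without control replicate 1 or 3 or any Appl- replicate, with adjusted p from 0.0556 to 0.0876. lncRNA:CR34335, a short noncoding RNA inside DIP-alpha, was at 1226 to 5471 CPM in male and 1421 to 9225 CPM in female cells (log2 -0.70), and its adjusted p was 0.0861, 0.0654, 0.176 and 0.104 without control replicate 1, 2 or 3 or Appl- replicate 2. Its levels were highest in control replicate 1 in both sexes. It overlaps DIP-alpha on the same strand, and whether reads of DIP-alpha were counted as its own was not tested. lncRNA:CR45668 gave a log2 difference of -1.28 and was lost without control replicate 3 or any Appl- replicate (adjusted p from 0.0667 to 0.116). CG18508 (log2 -0.52) was lost without any library but control replicate 2 (0.0538 to 0.104), and CG9123 (log2 -0.52) without each of the 6 (0.0511 to 0.133). Each of these 6 genes was lower in male cells of 6 of 6 libraries.

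Of the remaining genes called higher in female cells, 5 lie on the X outside the naming rule and were picked after their values were seen. Imp, which encodes an RNA-binding protein of the IGF2BP family, was at 384 to 445 CPM in male and 487 to 543 CPM in female cells, without overlap (log2 -0.35). Without control replicate 3 its difference was -0.32, short of 25% (adjusted p = 0.0320). CG32521 (log2 -0.42) was called without each library in turn. Ubr1, a ubiquitin ligase gene (log2 -0.34), was lost without control replicate 1 or any Appl- replicate, with adjusted p from 0.0538 to 0.0684. RhoGAP1A (log2 -0.49) was lost without control replicate 2 or 3 or Appl- replicate 1 or 2 (0.0538 to 0.0667), and CG42594 (log2 -0.45) without control replicate 3 or Appl- replicate 2 or 3 (0.0771 to 0.0857).

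Among the genes higher in male cells, several lie next to each other on the X. ND-B14.5A, a subunit of mitochondrial complex I (X:2172526-2173432), asRNA:CR45479 (X:2173480-2175855) and the cytochrome P450 gene Cyp4d2 (X:2176006-2178728) follow each other on the plus strand. Whether reads were assigned across these neighbours was not tested. ND-B14.5A was at 127 to 183 CPM in male and 91.5 to 144 CPM in female cells (log2 0.47). Its call was lost without control replicate 3 or Appl- replicate 1 or 2, with adjusted p of 0.0700, 0.0608 and 0.0667. asRNA:CR45479 was at 8.77 to 23.2 CPM in male and 2.65 to 5.05 CPM in female cells, without overlap (log2 2.04). It overlaps Cyp4d14 and asRNA:CR44690 on the opposite strand, and it is not known whether its reads were kept apart from theirs. The same holds for ND-B14.5A with Cyp4d14 and for Cyp4d2 with asRNA:CR44690. Cyp4d2 was at 10.1 to 21.8 CPM in male and 2.65 to 7.57 CPM in female cells, without overlap (log2 1.64). The latter pair were called without each library in turn, and UMIs of Cyp4d2 were found in 9.40% of male and 3.80% of female cells.

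Other X genes higher in male cells were low in both sexes. asRNA:CR44961, an antisense RNA of the juvenile hormone receptor gene gce, was at 3.83 to 8.32 CPM in male and 0 to 1.06 CPM in female cells (log2 3.66). It overlaps gce on the opposite strand, and it is not known whether reads of gce were kept apart from its own. It had 114 UMIs in 103 male cells and 6 UMIs in 6 female cells. Dok, an adaptor of kinase signalling, was at 1.90 to 6.45 CPM in male and 0 to 0.721 CPM in female cells (log2 3.92), with 79 male and 3 female UMIs. Its call was lost without control replicate 2 or 3 or any Appl- replicate (adjusted p from 0.0981 to 0.159). Muc14A, a mucin gene, was at 12.5 to 60.6 CPM in male and 0 to 11.7 CPM in female cells (log2 2.73) and was lost without any library but Appl- replicate 1 (0.0553 to 0.176). mthl1, a G protein-coupled receptor gene of the methuselah family, was at 22.2 to 33.3 CPM in male and 7.42 to 18.95 CPM in female cells (log2 1.05), with adjusted p of 0.0548 and 0.0598 without Appl- replicate 1 or 2. lncRNA:CR45527 gave a log2 difference of 0.92 and was lost without each library (0.0536 to 0.116). Each of these 5 genes was higher in male cells of 6 of 6 libraries.

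CG42541, picked after its values were seen, was the called gene nearest to a roX gene, 51.1 kb from roX1 between the midpoints of the genes. It was at 986 to 1132 CPM in male and 713 to 922 CPM in female cells, without overlap (log2 0.41), and was called without each library in turn. On the autosomes, lncRNA:cherub of arm 3R was at 41.2 to 62.8 CPM in male and 20.1 to 36.5 CPM in female cells of the controls. In Appl- cells lncRNA:cherub was at 13.7 to 19.2 CPM in male and 5.53 to 11.3 CPM in female cells. Its sex difference was 0.82 on the log2 scale, in the same direction in 6 of 6 libraries.

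Another 4 called genes did not have the same direction in all libraries. Of these, Obp19d is a member of a list, and Hml, Ppn and Arc1 were picked after their values were seen. Obp19d, an odorant-binding protein gene, was at 382 CPM in the female cells of control replicate 2 and 54.0 CPM in those of Appl- replicate 1, and at 0 to 4.66 CPM in the other 10 sums (log2 -5.41). Without control replicate 2 it no longer passed the filter on low counts, and without Appl- replicate 1 its adjusted p was 0.0878. A single female cell held 913 of its 1048 female UMIs. The hemocyte genes Hml (log2 4.24) and Ppn (log2 4.22) were high in the male cells of control replicates 1 and 2 and Appl- replicate 3, where Hml was at 67.8, 31.9 and 29.7 CPM and Ppn at 141, 62.0 and 35.7 CPM. In the other sums Hml was at 0 to 3.97 and Ppn at 0 to 9.02 CPM, and 5 male cells held 97.5% of male Hml and 96.8% of male Ppn UMIs. The 6 hemocyte markers together were at 5.77 to 221 CPM in male and 0 to 178 CPM in female cells, higher in male cells of 5 of 6 libraries. Arc1, a neuronal gene related to retroviral Gag, was at 125, 52.4 and 13.3 CPM in male and 326, 311 and 25.4 CPM in female cells of control replicates 1, 2 and 3 (log2 -1.69). In Appl- cells Arc1 was at 0 to 2.19 CPM in male and 0.403 to 3.54 CPM in female cells, and 5 cells held 77.0% of its female and 44.2% of its male UMIs, which lay in 232 female and 190 male cells. Its adjusted p was 0.0510 without control replicate 1 and 0.0583 without Appl- replicate 2. The 6 photoreceptor markers summed to 1332, 149 and 348 CPM in male and 655, 9527 and 3656 CPM in female cells of control replicates 1, 2 and 3. In Appl- replicates 1, 2 and 3 they summed to 59.2, 1096 and 10.0 CPM in male and 374, 772 and 649 CPM in female cells, higher in female cells of 4 of 6 libraries. In the 3812 cells that had neuron markers and few glia, hemocyte and photoreceptor UMIs, an alternative chosen after seeing the data, 51 genes were called. There Arc1 lost its call (adjusted p = 0.221), Obp19d, Hml and Ppn could not be fitted, and the other 27 genes called over all cells were called.

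Over the whole X chromosome, male cells had a slightly lower share of their UMIs than female cells. Without the roX genes, X genes gave 16.8%, 16.9% and 16.6% of the gene UMIs of male cells and 17.7%, 17.7% and 17.5% of those of female cells in control replicates 1, 2 and 3. In Appl- replicates 1, 2 and 3 the shares were 16.1%, 16.2% and 16.4% in male and 17.2%, 17.4% and 17.0% in female cells. Every male share was below every female share. The mean was 16.5% ± 0.312 in male and 17.4% ± 0.279 in female cells, a difference of -0.908 ± 0.212 percentage points (SD, n = 6 libraries), lower in male cells of 6 of 6 libraries (two-sided exact sign-flip test, p = 0.03125, the smallest that 6 libraries can give). With a limit of 10000 UMIs per cell the difference was -0.789 (exact p = 0.188). It was -0.867 in controls and -0.950 in Appl- (exact permutation test of 3 against 3 libraries, p = 0.8).

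**Figure D3:**
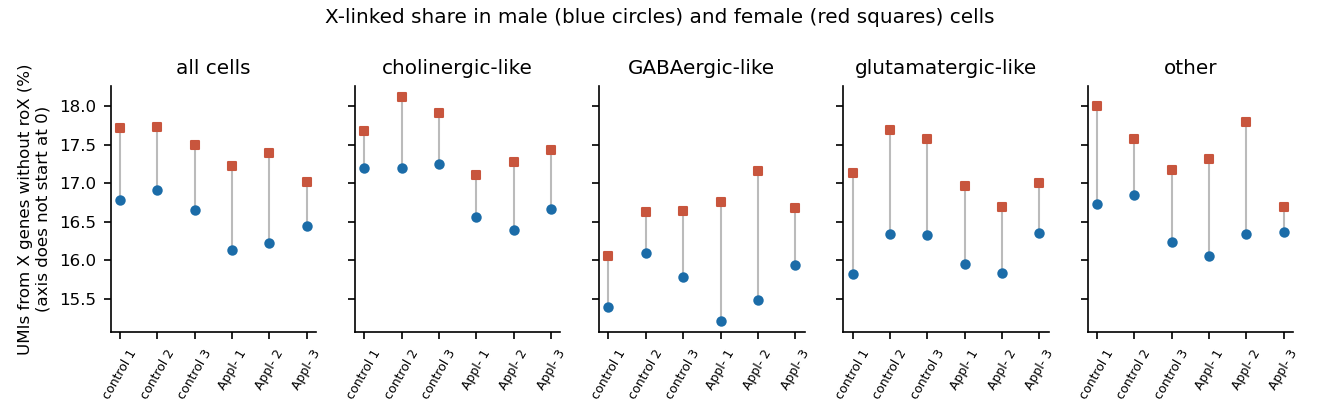
Share of gene UMIs from X genes without roX1 and roX2 in percent (y axis, not starting at 0) in the male (blue circles) and female (red squares) cells of each library (x axis), for all cells and for 4 classes of cells. The male point is below the female point in every library of every class, with a mean difference of -0.908 percentage points over all cells.

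The shares of the other chromosome arms were higher in male cells by smaller amounts. Arm 2R was higher by 0.294 and arm 3L by 0.298 percentage points, both in 6 of 6 libraries (exact sign-flip test, p = 0.03125 each). Arm 2L was higher by 0.195 points in 5 of 6 libraries (exact p = 0.0625), and 3R and 4 by 0.0816 and 0.0131 points, each in 4 of 6 (exact p = 0.594). These 6 shares, the X among them, sum to nearly all gene UMIs, so a lower share of the X raises the others. After Benjamini-Hochberg adjustment over these 6 comparisons the p of X, 2R and 3L was 0.0625.

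Lower levels in male cells were found at many X genes, and at most of them the difference was small. The abundant X gene lncRNA:CR34335 had means of 2561 CPM in male and 4318 CPM in female cells. Its part in the X share was not tested. The median log2 difference of the 1270 X genes tested was -0.05, against 0.004 over the 5905 genes of the 4 large autosome arms. X genes below 0 were 777 (61.2%), against 48.5% on those arms. Higher in female cells of all 6 libraries were 135 X genes (10.6%) and 113 genes of the arms (1.91%), and higher in male cells of all 6 were 53 X genes (4.17%) and 159 (2.69%). The median of X genes minus that of the arms was -0.0552 ± 0.0106 on the log2 scale over libraries (SD, n = 6), and between -0.0717 and -0.0450 in each library. With X genes in 4 groups of equal size by level, the 2 lower groups (up to 34.6 CPM) had medians of -0.0042 and -0.00025, and the 2 upper groups -0.07 and -0.08. In the most abundant group, 76.1% of the genes were below 0, against 50.3% of the lowest. Along the X in steps of 2 Mb, medians lay between -0.11 and 0.01. The lowest was that of the stretch from 6 to 8 Mb, where Sxl lies, and the highest that of the first 2 Mb.

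**Figure D4:**
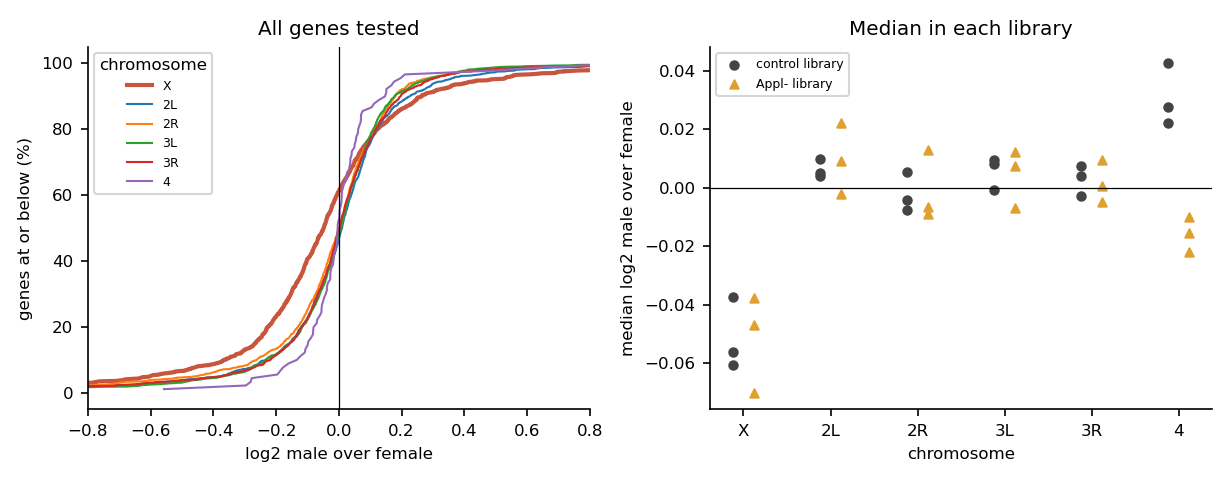
Left, cumulative percent of genes (y axis) by log2 difference of male from female cells (x axis, cut at -0.8 and 0.8) for each chromosome arm. Right, median log2 difference of each arm's genes (y axis) in each control (circles) and Appl- (triangles) library. The X curve lies to the left of the others, with 61.2% of its genes below 0, and the X medians are the lowest in all 6 libraries.

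The X-linked neuronal genes of the fixed list lay mostly below 0 without passing the test one by one. Of 23 listed and tested, 0 were called by edgeR or DESeq2, and the median was -0.07. In edgeR 7 had an unadjusted p below 0.05, against 765 of all 7306 genes. Below 0 were 19 of the 23, against 61.2% of all X genes tested. The teneurin gene Ten-a was at 1411 to 1559 CPM in male and 1587 to 2010 CPM in female cells, without overlap. Its log2 difference of -0.28 had an adjusted p of 0.0097 and fell short of 25%. elav, the neuronal RNA-binding protein, was lower in male cells of 6 of 6 libraries (log2 -0.26, adjusted p = 0.0804). Appl, also on the X (X:530501-579044), was lower in male cells of 6 of 6 libraries as well (log2 -0.21, adjusted p = 0.105) and was called in none of the alternatives. The channel genes para (log2 -0.05), Sh (-0.02) and cac (0.01) and the kinase sgg (0.01) were near 0.

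Among the lists of fat body and yolk, antimicrobial peptide and odorant-binding protein genes, edgeR called only Obp19d. Of the 10 fat body and yolk genes listed, 5 were tested and 0 called by either tool, with 0 at an unadjusted p below 0.05 in edgeR. Yolk protein genes are expressed by the female fat body and ovary. UMIs of Yp3 were found in 100% of male and 99.5% of female cells of control replicate 1, in 7.89% to 19.4% in the other controls and in 0% to 1.5% in Appl-, so nearly every cell of a single library held them. At such shares expression cannot be told apart from free RNA of the suspension, which male and female cells of a library share, and no likeness of the sexes is drawn from these genes. Yp1 was at 1.19 to 819 CPM in male and 0 to 742 CPM in female cells (log2 0.07), with the highest values of both sexes in control replicate 1. Yp2 (log2 -0.18) and Yp3 (log2 0.02) were likewise highest there in both sexes, and fat body markers together were at 3151 and 3211 CPM in its male and female cells, against 107 to 609 CPM elsewhere. The sign of Yp1 and Yp3 changed in several alternatives. Of 17 antimicrobial peptide genes, 8 were tested, 4 had an unadjusted p below 0.05 in edgeR and 0 were called by either tool, with log2 differences between -2.11 for BomS1 and 2.19 for CecB, and of 16 odorant-binding protein genes 3 were tested and Obp19d was called. Of all 7306 genes, 765 had an unadjusted p below 0.05.

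The sex differences were then followed in classes of cells defined by transmitter genes. Cholinergic-like cells, with VAChT and neither Gad1 nor VGlut, were 905 male and 643 female, GABAergic-like cells 210 and 168, glutamatergic-like cells 212 and 189, and other cells 922 and 730. No class took a share of the cells that differed between the sexes by the exact sign-flip test, with exact p of 0.219 for cholinergic-like (40.6% of male and 37.6% of female cells) and 0.0625 for glutamatergic-like cells (9.61% and 11.5%), and 0.312 after adjustment over 5 classes for the latter. The X share was lower in male cells of 6 of 6 libraries in each of these 4 classes, with mean differences of -0.708 points in cholinergic-like, -1.001 in GABAergic-like, -1.07 in glutamatergic-like and -0.994 in other cells.

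Sxl was lower in male cells of 6 of 6 libraries in each class, with ratios of male to female CPM of 0.545 in cholinergic-like, 0.513 in GABAergic-like, 0.487 in glutamatergic-like and 0.557 in other cells. CG18467 had ratios of 1.81, 2.03, 1.89 and 1.71 in the same order and was higher in male cells of 6, 5, 6 and 6 of 6 libraries. ssx had ratios of 1.39, 1.52, 1.18 and 1.33, higher in male cells of 6, 5, 5 and 6 libraries. CG17778 had ratios of 0.569, 0.461 and 0.674 in cholinergic-like, GABAergic-like and other cells, below 1 in 6 of 6 libraries. Among glutamatergic-like cells its ratio was 0.865, and 2 of 6 libraries went the other way. CG42541 had a ratio of 1.53 in other cells and of 0.917 in GABAergic-like cells, where it was higher in male cells of 2 of 6 libraries. These differences between classes were not tested. Among the RNAs that chose the cells, roX2 was at 1088 ± 267 CPM in cholinergic-like and 505 ± 169 CPM in GABAergic-like male cells (SD, n = 6), while roX1 was at 6385 and 5999 CPM.

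Taken by genotype, 11 of 7306 genes were called between male and female control cells (0.151%) and 29 between male and female Appl- cells (0.397%). The control calls were Sxl (log2 -0.80), CG17778 (-0.58), CG32795 (-0.63), Chchd2 (-0.35), ssx (0.50), CG18467 (0.87), CG42541 (0.52), asRNA:CR45479 (2.26), Muc14A (4.06), Hml (4.01) and Ppn (4.06). The count was 25 without control replicate 2, 17 without control replicate 1 and 4 without control replicate 3. In Appl- cells the count was 4 without Appl- replicate 1, 4 without Appl- replicate 3, 7 without Appl- replicate 2 and also 4 without control replicate 3, which shares the estimate of the spread. Called in Appl- cells with log2 differences below 0 were, among others, Sxl (-0.94), CG17778 (-0.77), elav (-0.39), Ten-a (-0.34), the histone methyltransferase gene G9a (-0.57), the carboxypeptidase gene svr (-0.45) and kirre (-0.41), a gene of cell adhesion. Called above 0 were, among others, CG18467 (0.74), asRNA:CR44961 (4.25), ND-B14.5A (0.57), COX7C (0.36), which encodes a subunit of cytochrome c oxidase, RFeSP (0.34) and the ribosomal protein gene RpL35 (0.39). Some of the largest Appl- differences, picked after their values were seen, rested mainly on 1 library. Pdf (-10.4) was at 4647 CPM in female cells of Appl- replicate 3, and 1 male cell there held 50 UMIs of Hml (6.97). Capa (4.25) was at 600 CPM in male cells of Appl- replicate 1, against at most 1.21 CPM in those of replicates 2 and 3. CG5773 (-5.55) and CG4716 (-3.77) were at 54.0 and 27.9 CPM in female cells of Appl- replicate 1, against at most 0.790 CPM in those of replicates 2 and 3.

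The difference between these sex differences was tested itself, and 0 of 7306 genes passed (0%) in edgeR, with 488 genes at an unadjusted p below 0.05, while DESeq2 called 7. Sxl gave an interaction of -0.14 on the log2 scale (adjusted p = 0.836) and CG18467 one of -0.13 (adjusted p = 0.855). The lowest adjusted p, 0.0600, was that of Pdf, the neuropeptide of clock neurons, picked after its values were seen. Its interaction passed the threshold under 9 of 15 alternatives, while DESeq2 gave -0.84 and the fit without Appl- replicate 3 gave -0.35 on the log2 scale, and neither passed. Pdf was at 4647 CPM in the female cells of Appl- replicate 3, at 3212 and 1488 CPM in the male and female cells of control replicate 1, and at 0 to 1.19 CPM in the other 9 sums. Leaving out a library gave 0 to 3 calls for the interaction, with 2, 3, 1 and 2 without control replicates 1 and 2 and Appl- replicates 1 and 2.

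Comparing the genotypes within each sex, 146 of 6939 genes were called in male cells (2.1%), 77 higher and 69 lower in Appl-, and 168 of 6876 in female cells (2.44%), 69 higher and 99 lower. Same-numbered control and Appl- libraries deviated together in female cells, and a fit that blocked on replicate number called 382 genes there, 132 higher and 250 lower in Appl-, which held all 168. In both sexes 91 genes were called, all in the same direction, which is 62.3% of the male and 54.2% of the female calls. Without Appl- replicate 1, 2 or 3 the counts were 64, 73 and 79 in male and 79, 61 and 81 in female cells, and without control replicate 2 the male count was 94.

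Appl itself was at 1976, 2316 and 2037 CPM in control and 158, 187 and 165 CPM in Appl- male cells. In female cells it was at 2160, 2622 and 2126 CPM in controls and 194, 218 and 218 CPM in Appl-. It fell by 3.64 in male and by 3.46 in female cells on the log2 scale (adjusted p = 6.35e-06 and 1.03e-05), and these falls differed by -0.18 (adjusted p = 0.695). Sxl was lower in Appl- than in control male cells without overlap, but missed the threshold (log2 -0.31, adjusted p = 0.168), and in female cells it gave -0.18 (adjusted p = 0.627). ssx gave 0.06 in male and 0.19 in female cells (adjusted p = 0.890 and 0.550).

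The 5 largest rises were those of the same genes in both sexes. 5-HT1B, a serotonin receptor gene, had no UMI in control male cells and 158 ± 30.3 CPM in Appl- male cells (SD, n = 3), at least 399-fold higher against a floor of 3 counts over the control libraries. In female cells it had 1 control UMI and 159 ± 35.1 CPM in Appl-. CG30428 had no UMI in controls of either sex and was at 130 and 136 CPM in Appl- male and female cells, at least 323-fold and 319-fold higher. CG32581 also had none and was at 64.9 and 70.9 CPM, at least 155-fold and 160-fold higher. CG13674 (31.8 CPM in male and 21.5 CPM in female Appl- cells) and Apl (16.8 and 17.7 CPM) completed them, with at most 4 control UMIs in a sex.

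The largest falls overlapped in part. asRNA:CR45600 was at 92.0 ± 4.01 CPM in control male cells and had no UMI in Appl- male cells, at least 304-fold lower, and in female cells it was at 97.2 CPM with 1 UMI in Appl-. Its neighbour CG6912, which overlaps it on the same strand, was at 83.4 and 83.6 CPM in control male and female cells and had 1 Appl- UMI in each. In male cells CG18095 (10.5 CPM in controls, at least 34.8-fold lower), lncRNA:CR45284 (19.5 CPM, 2 UMIs in Appl-) and the cell cycle phosphatase gene stg followed. stg was at 16.9, 6.10 and 6.63 CPM in controls and had 1 UMI in Appl-, and its adjusted p was 0.103, 0.0988 and 0.0567 without Appl- replicate 1, 2 or 3. In female cells CG4797 was at 89.1, 27.4 and 45.6 CPM in controls, at least 114-fold above Appl-, with 70.7% of its UMIs in 5 cells. CG5687 was at 55.2, 21.6 and 27.0 CPM, at least 73.2-fold above Appl-, with 71.5% of its UMIs in 5 cells. T48 was at 23.8, 18.2 and 4.24 CPM, at least 33.7-fold above Appl-, and its adjusted p was 0.113, 0.131 and 0.104 without Appl- replicate 1, 2 or 3. The calls of CG4797 and CG5687 were lost with at most 20% mitochondrial UMIs (adjusted p = 0.284 and 0.233). In control female cells the CG4797 UMIs lay in 11, 3 and 2 cells of replicates 1, 2 and 3, and the 8 T48 UMIs of replicate 3 in 1 cell. In male cells CG4797 and CG5687 did not pass the filter on low counts. CG4797 had 40, 1 and 1 UMIs in control and 5, 7 and 2 in Appl- male cells of replicates 1, 2 and 3. CG5687 had 30, 3 and 0 UMIs in control and 11, 14 and 8 in Appl- male cells. T48 gave a log2 difference of -3.92 in male cells (adjusted p = 0.0785). The interactions of the 3 genes did not pass (adjusted p = 0.547, 0.350 and 0.762).

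The Y chromosome, which in the usual fly karyotype is found in males, gave most of its UMIs in cells of the female class of Appl-, and 0 of 12 listed Y genes passed the filter on low counts. The sources used here do not give the karyotype of the females, and whether Appl- females carried a Y chromosome was not tested. Over all Y genes in the annotation, picked after values were seen, control male cells had 1, 4 and 1 UMIs in replicates 1, 2 and 3, and control female cells had 0 in 924 cells, which allows up to 0.426 CPM by a floor of 3 counts and up to 0.523 CPM by the exact 95% Poisson limit. Appl- male cells had 5, 5 and 3 UMIs in replicates 1, 2 and 3. Appl- female cells had 13, 27 and 15 UMIs, or 5.71, 10.8 and 11.8 CPM. Pooled, it was 9.10 CPM in Appl- female (95% exact Poisson interval 6.85 to 11.8, counting error only), 1.32 in Appl- male and 0.808 in control male cells. The genotypes did not overlap in female cells, with a two-sided exact permutation p of 0.1, the smallest that 3 against 3 libraries can give. The 55 UMIs lay in 48 of 812 Appl- female cells, at most 3 in a cell. Of them, 37 were of copies of Su(Ste), a repeated gene whose reads can be split among copies, 9 of kl-2, a dynein gene, 8 of FDY and 1 of another gene, and male cells had no FDY UMI.

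**Figure D5:**
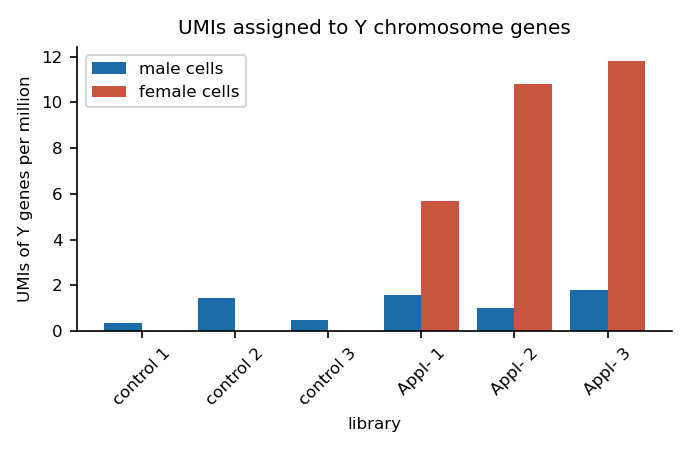
UMIs of Y chromosome genes per 1000000 gene UMIs (y axis, bars from 0) in the male (blue) and female (red) cells of each library (x axis). The 3 Appl- female bars stand at 5.71, 10.8 and 11.8 CPM, the control female bars at 0 and all male bars below 2.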

How the data were processed

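Brains of 3 control and 3 Appl- libraries were measured by single-cell 3' RNA sequencing, and samples were grouped by their titles. The deposited values are UMI counts, whole numbers without normalization, which Cell Ranger 6.0.0 made for the authors over 22064 features in each called barcode. The genome build and the use of strand in counting are not given in the sources used here. Of 16493 gene IDs, 16447 (99.7%) matched Ensembl BDGP6.54, which gave chromosomes and positions. The 5571 transposable features were not tested, and 0 other columns of per-sample values were left aside.

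Cells were chosen and sexed by the limits given above, and counts of genes were summed per library and sex into 12 sums of about 1268640 to 5024130 UMIs. Sums were tested with edgeR 4.0.16 (TMM, filterByExpr, quasi-likelihood) in R 4.3.3, with library terms between the sexes and 3 against 3 sums between genotypes, and the procedure was tested on simulated data. CPM of single genes are TMM-scaled in sex and genotype comparisons and unscaled for roX, cell classes, cells between the limits and Y genes. Single values were compared by exact permutation in scipy 1.17.1. The cells, lists and rules were chosen with earlier results of these data known. Named are list members, Appl, the 10 called genes with the largest difference in each direction and the same sign in all 6 libraries, the 5 largest on the X in each direction, and the 5 largest calls per direction without overlap in each genotype comparison; others are said to be picked after their values were seen. Cell classes needed at least 3 UMIs of VAChT, Gad1 or VGlut and none of the other genes; glia-like cells had UMIs of at least 3 glia markers and none of elav or nSyb.

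The labels number the replicates alike in both genotypes. The deviations of libraries with the same number gave correlations of 0.217, 0.115 and 0.257 in female and of 0.013, 0.023 and -0.027 in male cells. The genotype results given above are from fits without pairing in either sex, and a block on the replicate number was run as an alternative. That the numbers may pair female libraries was read from the data and not the labels. Alternatives were DESeq2 1.42.0, its size factors, TMM on autosomal genes, no low-count filter, no fold threshold, the replicate block, other roX, UMI and mitochondrial limits, thinning to 5000 UMIs, leaving out each library and, chosen after seeing the data, neuron-like cells only. Counting intervals cover counting error only.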

Additional observations from a re-analysis of the deposited data

Results flagged for a closer look

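The log2 difference of Sxl between male and female cells was -0.55 in control replicate 1, apart from the other 5 libraries, which lay between -0.96 and -0.91. The gap to the nearest library was 0.891 of the whole range, above Dixon's 95% limit for 6 values. Of 57 results screened in this way 1 passed, and chance passes about 1 in 20. The same library had the largest share of cells between the roX limits, 10.4%, and the lowest median of roX UMIs in male cells, 40. Their part in the Sxl value was not tested.

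Genes of chromosome 4 had a median log2 difference between male and female cells above 0 in each control library (0.02, 0.03 and 0.04) and below 0 in each Appl- library (-0.01, -0.02 and -0.02). The genotypes differed by -0.0466 in this median, over 90 genes. The difference was not tested.

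UMIs of Y chromosome genes, which entered no comparison across genes, were at 9.10 CPM in Appl- female cells, above the 0.426 CPM that a floor of 3 counts allows for the count of 0 in control female cells.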

How the results depend on the processing

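Of the 31 genes called between male and female cells, 3 were called in every alternative fitted, and none changed sign. The count of 31 became 101 with no filter on low counts, 6 with at least 10000 UMIs per cell, 96 with at least 3000, 51 in neuron-like cells, and 20 to 28 without a library. That of 11 in controls became 131 with no filter, 21 with at least 10000 UMIs, 31 with at least 3000, 25 with at most 20000, 19 after thinning, 25 in neuron-like cells, and 4 to 25 without a library. That of 29 in Appl- became 16 with DESeq2, 104 with no filter, 2 with at least 10000 UMIs, 74 with at least 3000, 16 with at most 20000, 49 in neuron-like cells, and 4 to 37 without a library. The 0 interactions became 7 with DESeq2, 40 with no filter, 8 with at least 10000 UMIs, 1 with at least 3000, 3 with at most 20% mitochondrial UMIs, 2 after thinning, 2 in neuron-like cells, and 0 to 3 without a library. The genotype count of 146 in male cells became 221 with DESeq2, 236 with no filter, 53 with at least 10000 UMIs, 258 with at least 3000, and 64 to 218 without a library. That of 168 in female cells became 347 with no filter, 111 with roX limits of 40 and 2, 99 with at least 10000 UMIs, 255 with at least 3000, and 61 to 201 without a library. The X share difference of -0.908 was -0.789 with at least 10000 UMIs (exact p = 0.188) and -0.974 to -0.854 without a library, where p = 0.0625 is the smallest 5 libraries can give. Apart from changes in numbers of cells, libraries or genes tested, the cause was not tested.

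Blocking on the replicate number, the fits called 382 genes in female and 242 in male cells. In male cells, libraries of the same number did not deviate together. With a replicate block and genotype in place of library terms, 22 genes were called between the sexes.

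Yp1 turned negative with roX limits of 40 and 2 (-0.197), at least 3000 UMIs (-0.395), at most 20% mitochondrial UMIs (-0.0264), thinning (-0.00479) and neuron-like cells (-0.0295). Yp3 turned negative with the same settings (-0.296, -0.527, -0.0211, -0.0503 and -0.0987), with at most 20000 UMIs (-0.00719) and without control replicate 1 or Appl- replicate 1, within a range of -0.016 to 0.103 over libraries left out. ssx between genotypes in male cells was -0.0059 to 0.161 over libraries left out, below 0 only without control replicate 1, and Sxl in female cells was 0.0903 with at least 10000 UMIs. At 5000 UMIs per cell, low genes such as dsx, Dok and the Y genes had few counts in a sum, and differences among them were near the limit of detection.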

Other observations

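Genes of the X that lie near Appl were looked at after their values were seen, so no test is given. Within 500 kb of Appl, 56 genes were tested between male and female cells, with a median log2 difference of -0.05 in controls and -0.14 in Appl-. By library the medians were -0.05, -0.10 and 0.01 in control replicates 1, 2 and 3 and -0.19, -0.15 and -0.11 in Appl- replicates 1, 2 and 3. Among these genes, 5 were called lower in male than in female Appl- cells, namely elav, svr, CG17778, CG13375 and G9a. Over all 7306 genes tested, 21 were called lower in this comparison. CG17778 was also called lower in male than in female control cells (log2 -0.58, adjusted p = 0.00909). elav, which lies 7.28 kb from Appl, had a log2 difference of male from female of -0.13 in controls and -0.39 in Appl-. svr, which lies 21.4 kb from Appl, had differences of -0.09 and -0.45. The interactions of elav and svr did not pass in edgeR (adjusted p = 0.441 and 0.474). Between 500 and 1500 kb from Appl, 71 genes had medians of 0.02 in controls and 0.03 in Appl-, and 0 were called lower in male than in female Appl- cells. Beyond that distance, 1142 X genes had medians of -0.05 in both genotypes, and 12 were called lower in male than in female Appl- cells.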
